A study of Caenorhabditis elegans with 2 samples.

Results

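In the compact genome of Caenorhabditis elegans many neighbouring genes are transcribed away from each other, so that their 5′ ends face one another across a short stretch of DNA that serves as the promoter region of both. The summits described here lie in such divergent promoters. SPR-3, the protein mapped, is a zinc finger factor of the C2H2 kind, known from genetics as a suppressor of presenilin mutants. A peak in a divergent promoter does not say which of the facing genes, if any, responds to the bound factor. Many worm transcripts also receive a spliced leader in place of their own 5′ end, so an annotated 5′ end is often the trans-splice site and not the start of transcription.

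The members were selected on the pooled signal and on gene positions. Among the 5000 intervals of highest pooled signal, a member had its summit inside the promoter window of at least 1 protein-coding gene on each strand. A promoter window ran from 1000 bp upstream to 200 bp downstream of the annotated 5′ end, and summits within 200 bp of a tRNA, snRNA or snoRNA gene were left out. This gave 242 members of 30000 pooled intervals, and the small RNA condition removed 16 further summits. For comparison, 1105 of the 5000 had a summit in promoter windows of 1 strand only (one-direction promoters) and 3169 lay in no promoter window, both also away from small RNA genes.

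The experiment was chromatin immunoprecipitation followed by sequencing on whole worms of strain OP703. The description of both samples names an anti-GFP antibody, whereas their antibody field reads spr-3, the gene carried by the transgene. All worms carry the unc-119(tm4063) mutation and the integrated transgene wgIs703, which supplies SPR-3 joined to TY1, EGFP and 3xFLAG tags together with a working unc-119. The worms were a mixed-sex population of L4 larvae, 49 hours of age, grown from larvae starved at L1 after bleaching. The 2 samples are biological replicates of this 1 group, with no second condition. The mapped protein is the tagged product of a transgene, and the genotype in the labels lists no change at the endogenous spr-3 gene. The signal of an interval is the authors' own value for ChIP against control. Since the files hold no read counts, the depth of each library is unknown. The series has 1 group and the rule used the pooled signal, so all results below are descriptions without tests. Intervals given with shares are exact 95% binomial intervals, which cover counting error among summits, genes or windows and not variation between worm cultures.

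The windows printed here show what some members of high signal look like at the base level. They span 60 bp to each side of the summit, on the plus strand of ce11, and were taken from members that overlap no annotated exon. The first 3 hold GCGNCAGC, the next 3 are the strongest with GAGACGCA, and the last 2 hold neither GACGC nor GCGNCAGC. The first 3 are not the strongest of all members with GCGNCAGC. The members at wve-1 and R06C1.4 (355) and at rsr-1 and sri-5 (351) also hold it and are not printed. Their pooled signals were above that of fbxb-85 and hex-3 (350), the highest of the first 3. Capitals mark matches, on either strand, to GCGNCAGC, GACGC, GAGACGCA, AAGTGCGC, GCGCTCCA, GCGAGACC and CTGGCGCA, the words discussed further on.
fbxb-85 and hex-3, chrIII:10848966-10849086: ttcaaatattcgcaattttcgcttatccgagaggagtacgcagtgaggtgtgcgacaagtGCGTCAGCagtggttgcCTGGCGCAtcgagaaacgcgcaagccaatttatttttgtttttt
jmjd-4 and mev-1, chrIII:10334077-10334197: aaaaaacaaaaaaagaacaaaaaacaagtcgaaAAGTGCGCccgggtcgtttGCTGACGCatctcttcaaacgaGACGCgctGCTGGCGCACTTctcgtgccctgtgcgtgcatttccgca
haf-3 and F57A10.2, chrV:15766334-15766454: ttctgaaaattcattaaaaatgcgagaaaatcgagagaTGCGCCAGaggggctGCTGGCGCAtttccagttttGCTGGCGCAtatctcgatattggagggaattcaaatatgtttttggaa
drr-2 and set-16, chrIII:13643681-13643801: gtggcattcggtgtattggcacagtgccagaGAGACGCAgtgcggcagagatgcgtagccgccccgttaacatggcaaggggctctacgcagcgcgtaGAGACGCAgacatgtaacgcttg
F44E5.4 and F44E5.5, chrII:11759426-11759546: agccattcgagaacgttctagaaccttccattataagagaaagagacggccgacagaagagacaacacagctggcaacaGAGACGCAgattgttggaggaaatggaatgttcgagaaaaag
R107.5 and cls-2, chrIII:9053991-9054111: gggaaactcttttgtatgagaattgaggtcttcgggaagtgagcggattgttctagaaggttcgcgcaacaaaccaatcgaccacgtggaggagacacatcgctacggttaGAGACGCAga
rpl-20 and Y17G9B.5, chrIV:4750032-4750152: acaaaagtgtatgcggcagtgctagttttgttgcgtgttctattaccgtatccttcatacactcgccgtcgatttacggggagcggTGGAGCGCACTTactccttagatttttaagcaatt
Y22D7AL.10 and hsp-60, chrIII:1619070-1619190: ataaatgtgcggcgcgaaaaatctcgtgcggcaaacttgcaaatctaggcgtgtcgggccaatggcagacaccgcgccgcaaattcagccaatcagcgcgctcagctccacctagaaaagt

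Divergent promoters were concentrated among the strongest intervals. They held 107 of the 945 intervals of highest pooled signal (11.3%, interval 9.37 to 13.5%), 69 of the next 1555 (4.44%) and 66 of those ranked 2501 to 5000 (2.64%). Below rank 10000 their share was 1.94 to 1.96%, close to the 2.07% of the genome that satisfies the position part of the rule. One-direction promoters held 27.6% of the first 945 intervals and 19.2% of those below rank 10000, beside 19.3% of the genome. Each replicate list, ranked by its own signal, showed the same order for divergent promoters. Among its first 945 intervals they held 10.4% in replicate 1 and 10.2% in replicate 2, and among ranks 2501 to 5000 they held 2.32% and 3.40%. Both replicate lists were made against the same control and their reads are in the pool, so they are not a separate sample.

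**Figure D1:**
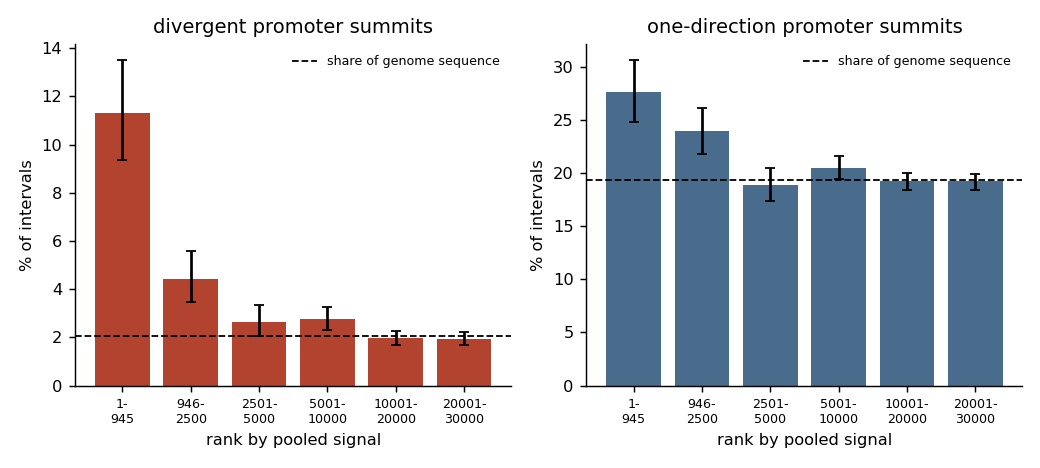
Share of intervals (%) with a summit in a divergent promoter (left) and a one-direction promoter (right), by rank in the pooled list. Bars are shares, whiskers exact 95% binomial intervals, and dashed lines the share of the genome in each kind of window; the divergent share is 11.3% in the first bin and 1.94% in the last, the one-direction share 27.6% and 19.2%.

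The authors' thresholded set of 945 peaks is the 945 pooled intervals of highest signal. It held 107 of the 242 members (44.2%) and 261 of the 1105 one-direction summits (23.6%), beside 18.9% of the 5000. Because the rule ranked intervals on the same signal, this split is a description of the selection. The members had a median signal of 125 (quartiles 100 and 191, range 84.6 to 1002), and the one-direction summits a median of 105 (quartiles 93.1 and 134). At the lower edge of the rule stood F41F3.3 and F41F3.8, K09F6.10 and K09F6.13, and chin-1 and BE0003N10.1, each with a signal of 84.6. Just outside it stood F40F11.3 and mig-38 (84.0), piit-1 and sas-5 (83.8), and a second candidate between F54D5.9 and dnj-13 (83.7).

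Divergent windows lie closer to 5′ ends than one-direction windows, so summits were also counted per length of sequence at the same distance from the nearest 5′ end. In all, divergent windows held 117 summits per Mb in 2.08 Mb of sequence. One-direction windows held 57.2 per Mb in 19.3 Mb, and sequence outside promoter windows 40.4 per Mb. Operon annotation was not used, so one-direction windows include any at genes transcribed from the promoter of a gene before them. Within 99 bp of the nearest 5′ end the densities were 122 per Mb in divergent and 76.9 per Mb in one-direction windows. From 100 to 199 bp divergent windows held 130 and one-direction windows 80.9 per Mb. From 200 to 399 bp divergent windows held 147 and one-direction windows 62.5 per Mb, and from 400 to 1000 bp divergent windows held 45.5 and one-direction windows 39.6 per Mb. The divergent density was thus above the one-direction density in each of the 4 distance ranges, least so in the farthest, which rests on 16 members.

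**Figure D2:**
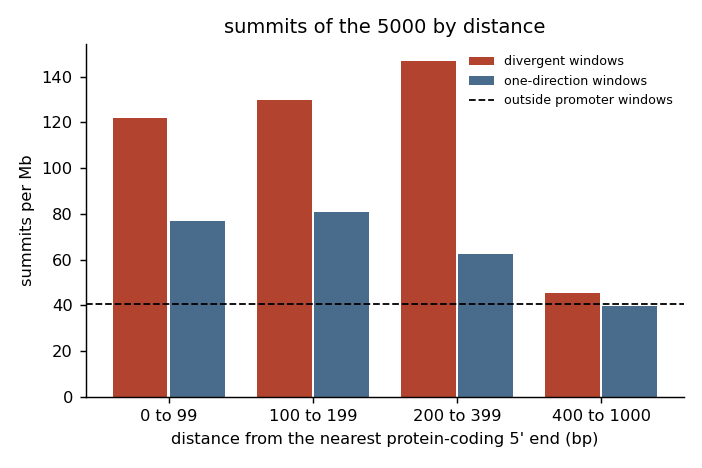
Summits of the 5000 strongest intervals per Mb of sequence, by distance (bp) from the nearest protein-coding 5′ end, for divergent windows (left bars) and one-direction windows (right bars). The dashed line is the density outside promoter windows (40.4 per Mb), and the divergent bars run from 45.5 to 147 per Mb.

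The genome holds 3072 pairs of oppositely directed protein-coding genes whose promoter windows overlap, and 257 of them (8.37%, interval 7.41 to 9.40%) had a member where the windows overlap. A member can lie in the overlap of more than 1 pair. Of the 5656 genes in these pairs, 491 (8.68%, interval 7.96 to 9.45%) had a member. Of the 14317 genes without a divergent partner, 916 (6.40%, 6.0 to 6.81%) had a one-direction summit. These gene shares rest on unlike sequence. For genes with a partner only summits in the overlap of facing windows count, and for genes without one those in the whole window. With the thresholded set alone the shares were 3.96% of genes with a divergent partner and 1.53% of genes without one. A promoter shared by facing genes counts for each of them, so gene shares are not numbers of separate binding sites. Most members stood alone in their promoter: their nearest gene pairs numbered 236, of which 6 had 2 members each, among them ecps-1 and atx-2 (ataxin-2-like), R186.8 and lin-46 (a timing gene), and C55A6.1 and C55A6.10. Windows of more than 2 genes held 22 members.

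The share of pairs with a member was highest where the facing 5′ ends were 200 to 999 bp apart. Members were found at 14.2% of 480 pairs with ends 200 to 399 bp apart, 13.0% of 408 pairs at 400 to 599 bp and 12.2% of 658 pairs at 600 to 999 bp. At 1000 to 1499 bp the share was 4.54%, and at 1500 to 2000 bp it was 1.70%. Pairs closer than 200 bp had members in 6.85% of 248 cases, and none of the 52 pairs with overlapping 5′ ends had one, which at that number allows up to 6.85%. The sequence in which the windows overlap grows with distance while the ends are close and shrinks again at longer distances, so the low shares at both ends of this range and the maximum between them are partly fixed by the rule. The median distance was 538 bp in pairs with a member (quartiles 351 and 814 bp) and 788 bp in all pairs (395 and 1349 bp).

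The summits lay between the genes, near the centre more than at the edges. Of the 242 members, 204 (84.3%, interval 79.1 to 88.6%) had the summit between the facing 5′ ends, where 69.2% of the overlap sequence lies, and the others lay past one of the ends. Among the 225 members with ends at least 200 bp apart, 131 (58.2%, 51.5 to 64.7%) lay in the central part from 0.25 to 0.75 of the distance, which makes up 46.1% of the overlap sequence. Summits were split about evenly between directions, and 126 summits (52.1%, 45.6 to 58.5%) were nearer to the plus-strand 5′ end. The nearer 5′ end was a median of 143 bp away and the farther one 393 bp. An annotated exon held 64 member summits (26.4%, 21 to 32.5%) and 401 one-direction summits (36.3%, 33.4 to 39.2%). For scale, summits matched in both replicates differed in position by a median of 23 bp at members.

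**Figure D3:**
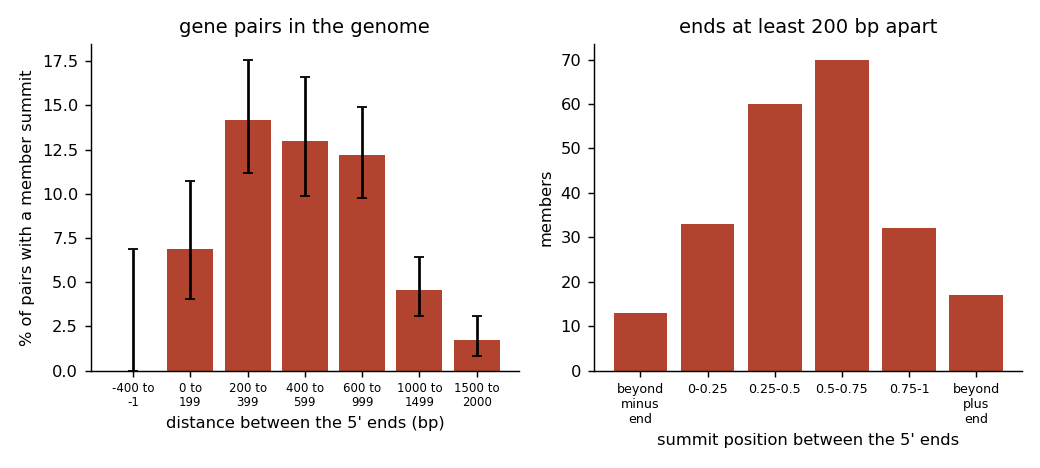
Left, share (%) of divergent gene pairs in the genome with a member, by distance between the facing 5′ ends (bp), with exact 95% binomial intervals. Right, number of members by summit position between the ends (0, minus-strand gene; 1, plus-strand gene); the 2 central bins hold 60 and 70 members.

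Chromosome III had the highest share of pairs with a member, 13.1% of 482 (interval 10.2 to 16.4%), followed by chromosome I with 10.8% of 520 (8.24 to 13.8%). The shares on IV, II, V and X were 7.55, 6.91, 6.08 and 5.79%, with intervals that overlap one another. Chromosome X holds only 190 of the 3072 pairs and had 11 members. The intervals of III and I overlap too, so their order is not resolved at these counts.

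The strongest member, with a pooled signal of 1002, stood between rpl-20, which encodes a large-subunit ribosomal protein, and Y17G9B.5 (IV 4749924 to 4750246). Like every signal given here, it is the authors' peak value. It was 515 in replicate 1 and 481 in replicate 2, and its summit lay 314 bp from the 5′ end of rpl-20 and 148 bp from that of Y17G9B.5. The next stood between K01G5.10 and tasp-1, a taspase-like protease gene (III 10759099 to 10759413), with 939 in the pool, 411 in replicate 1 and 531 in replicate 2. The promoter of rpl-15 and K11H12.8 followed with 846 in the pool (447 and 399 in replicates 1 and 2). All of the 25 strongest members ranked within the first 174 candidates of replicate 1 and the first 203 of replicate 2, and their pooled signals were 324 or more.

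After rpl-20 and rpl-15, 5 more of the 25 had a gene for a ribosomal protein, each facing a gene of another kind. The summit of the rpl-12 and lin-54 promoter (575 pooled, 317 and 257 in the replicates) lay 23 bp from the 5′ end of rpl-12 and 370 bp from that of lin-54, which encodes the DNA-binding subunit of the DREAM repressor. That of rps-19 and hsr-9, a gene related to the DNA damage factor 53BP1, had 571 in the pool (331 and 241). The ifet-1 and rps-1 promoter, whose first gene encodes an eIF4E-binding repressor of translation, had 520 (257 and 260). The ska-3 and rps-12 promoter, with a spindle and kinetochore gene on one side, had 455 (220 and 227). The rpl-7A and set-21 promoter closed the 25 with 324 (195 and 132). In all 5 the signal of both replicates exceeded 100.

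Chaperone genes were the other frequent group. The cct-8 and Y55F3AR.2 promoter, cct-8 being a subunit gene of the cytosolic chaperonin, had 697 in the pool (388 in replicate 1 and 301 in replicate 2). The promoter of hsp-60, the mitochondrial chaperonin gene, and Y22D7AL.10 had 658 (346 and 309), with the summit 612 bp from the 5′ end of hsp-60 and 201 bp from that of its partner. F44E5.4 and F44E5.5, both annotated by RefSeq as Hsp70-type chaperone genes but in none of the lists used here, shared a summit with a signal of 491 (244 and 253), 175 and 176 bp from their 5′ ends. The Hsp40-type genes dnj-13 (438) and dnj-19 (345) were also among the 25, the first facing F54D5.9 and the second nhr-47, a nuclear hormone receptor gene.

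The remaining promoters of the 25 covered chromatin, translation, the cytoskeleton and secretion. The drr-2 and set-16 promoter had 565 in the pool (300 and 268); set-16 encodes an MLL-type histone H3K4 methyltransferase and drr-2 an eIF4H-like factor. Its summit lay 171 and 175 bp from the facing 5′ ends. The promoter of lin-53, a histone-binding protein gene, and nra-2 had 441 (219 and 210). Signals of 327 to 403 stood at nhl-2 and tag-340 (403), iff-2 (the eIF5A gene) and F54C9.14 (402), gmps-1 (GMP synthase) and cap-2 (actin capping protein) (380), and wve-1 (the WAVE actin regulator) and R06C1.4 (355). In the same range lay rsr-1 and sri-5 (351), fbxb-85 and hex-3 (350), sec-61.B and trap-3, both genes of the endoplasmic reticulum translocon (347), and R107.5 and cls-2, a microtubule regulator of the CLASP family (338). The promoters of larp-1 and wip-1 (336) and of gpap-1 and scpr-1 (327) completed them. All of the 25 had a candidate in both replicates.

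Genes for core cell processes had members at a higher share than genes of divergent pairs at large. Of the 445 genes in 17 lists of core processes that have a divergent partner, 107 (24.0%, interval 20.1 to 28.3%) had a member, beside 8.68% of all genes with such a partner and 7.97% of those in no list. Of the 493 in 6 lists of tissue-specific and signalling genes, 8 (1.62%, 0.703 to 3.17%) had one. At least 1 nearest gene of the core lists was found at 94 of the 242 members (38.8%, 32.7 to 45.3%) and at 15 of the 25 strongest (38.7 to 78.9%). The share of all divergent pairs with a core gene was not computed, so these member counts have no background here. A member can count through either facing gene, so the gene shares above do not serve as one. The higher share of core genes was not limited to divergent promoters. Core genes without a divergent partner had a one-direction summit in 19.7% of 437 cases (16.1 to 23.7%), and tissue and signalling genes in 2.56% of 1718. The lists were chosen with earlier results of these data known, so the counts are no independent evidence.

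**Figure D4:**
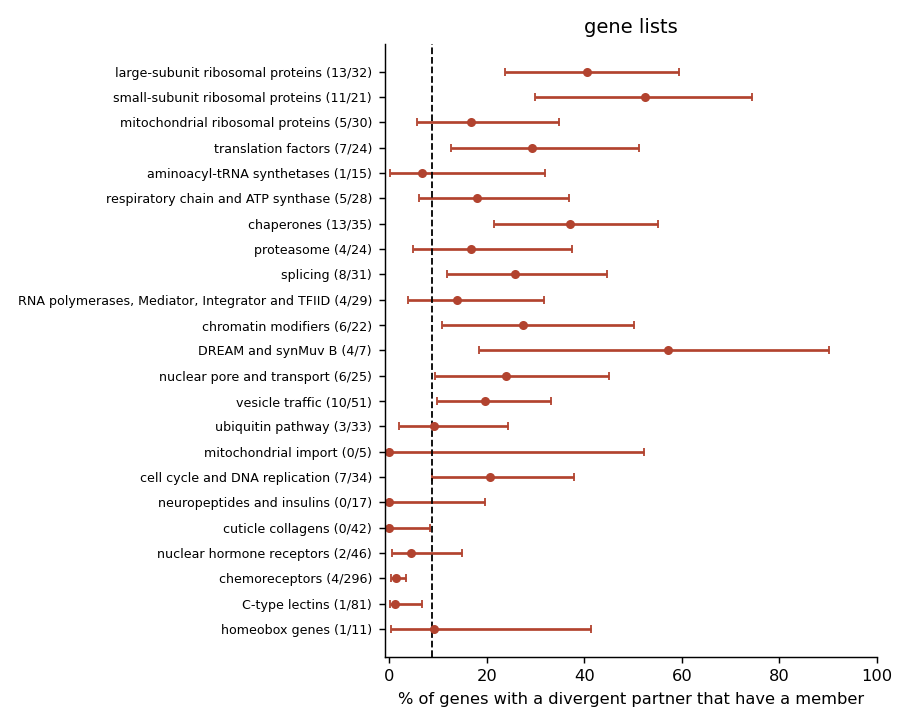
Share (%) of genes with a divergent partner that have a member, for each of 23 gene lists (members and genes in brackets). Points are shares, whiskers exact 95% binomial intervals, and the dashed line is 8.68%, the share over all genes with a divergent partner.

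Among the larger lists the highest shares were those of the genes for cytosolic ribosomal proteins. Of the 21 small-subunit genes with a divergent partner 11 had a member (52.4%, interval 29.8 to 74.3%), and of the 32 large-subunit genes 13 did (40.6%, 23.7 to 59.4%), 8 and 9 of them in the thresholded set. After those of the 25 strongest, the small-subunit genes were led by rps-20 (287), rps-15 (274) and rps-23 (200), and the large-subunit genes by rpl-7 (192), rpl-22 (154) and rpl-36 (147). In 3 promoters a small-subunit gene faced a large-subunit gene across the same summit: rps-14 and rpl-36 (147), rps-10 and rpl-24.1 (146), and rpl-39 and rps-30 (105, not thresholded). Ribosomal protein genes without a divergent partner had one-direction summits at 6 of 10 for the small and 8 of 18 for the large subunit. Genes for mitochondrial ribosomal proteins had members at 5 of 30 (16.7%, 5.64 to 34.7%), with mrpl-12 (233), mrps-7 (191), mrps-21 (187) and mrpl-45 (119) the highest.

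Other genes of protein synthesis followed. Translation factor genes had members at 7 of 24 (29.2%, interval 12.6 to 51.1%), and after iff-2 the highest were the elongation factor genes eef-2 (217), eef-1G (212) and eef-1A.1 (190). Only ears-2 (264), for a glutamyl-tRNA synthetase, was found among 15 aminoacyl-tRNA synthetase genes. Chaperone genes had members at 13 of 35 (37.1%, 21.5 to 55.1%). Beyond those of the 25 strongest these included cct-1 (251), hsp-110 (250), which faces the proteasome gene rpn-3 across the same summit, and hsp-6 (142), the mitochondrial Hsp70. Chaperone genes without a divergent partner had one-direction summits in 5 of 31 cases (16.1%).

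Shares of genes for gene regulation and the cell cycle ran from 13.8 to 57.1%. Of 7 DREAM and synMuv B genes with a divergent partner 4 had a member, all thresholded: lin-54 (575), lin-53 (441), efl-1, an E2F-like factor (200), and lin-35, the retinoblastoma homologue, which faces vps-51 (142). With 7 genes the interval of this share runs from 18.4 to 90.1%. Chromatin modifier genes had members at 6 of 22 (27.3%, 10.7 to 50.2%), after set-16 and set-21 with jmjd-4 (240) and jmjd-1.2 (187) the highest. Splicing genes had 8 of 31 (25.8%), led by rsp-1 and rsp-2 (180), SR protein genes that face each other, prp-40 (156) and prp-19 (138). The transcription machinery list had 4 of 29 (13.8%), led by taf-4 (239) and mdt-19 (227), and cell cycle and replication genes had 7 of 34 (20.6%), of which only rfc-4 (190) was thresholded.

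Shares of transport, energy and protein turnover genes ran from 9.09 to 24.0%. Vesicle traffic genes had 10 of 51 (19.6%, interval 9.82 to 33.1%), led by sec-61.B (347), syx-5 (252), vps-32.1 (223) and rab-11.1 (192), which faces rpl-7. Nuclear pore and transport genes had 6 of 25 (24.0%), led by npp-3 (203), ran-5 (168) and npp-14 (168). The listed respiratory chain and ATP synthase genes had 5 of 28 (17.9%, 6.06 to 36.9%), led by atp-1 (316), mev-1, a succinate dehydrogenase subunit gene (240), ucr-2.1 (159) and cox-5B (136). This list is incomplete. The complex I genes nduf-2.2 (225), ndub-8 (181), nduc-2 (155), ndua-8 (154), ndua-2 (153) and nduv-3 (126) had members but are in none of the lists. The share is thus not that of all respiratory chain genes. Proteasome genes had 4 of 24 (16.7%), led by rpn-3 (250) and rpn-2 (117), and ubiquitin pathway genes 3 of 33 (9.09%), led by ubq-2 (167) and ubc-6 (160). The intervals of these shares, apart from vesicle traffic and nuclear transport, include 8.68%.

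Of the 6 tissue and signalling lists, the intervals of cuticle collagen, chemoreceptor and C-type lectin genes lay below 8.68%, and those of the others include it. Neuropeptide and insulin genes had 0 of 17 (up to 19.5%), cuticle collagen genes 0 of 42 (up to 8.41%) and C-type lectin genes 1 of 81 (clec-99, 85.6). Chemoreceptor genes had 4 of 296 (1.35%, interval 0.369 to 3.42%), of which the highest, sri-5 (351), faces rsr-1, a gene for an SR-related protein. The nuclear hormone receptor genes nhr-47 (345) and nhr-142 (223) were 2 of 46 (4.35%, 0.531 to 14.8%), and the homeobox gene ceh-38 (145) was 1 of 11 (9.09%, 0.230 to 41.3%). Mitochondrial import genes, of the core lists, had 0 of 5.

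Genes at members also differed in their neighbours, as plain counts. A further protein-coding gene on the same strand began within 500 bp downstream of 176 of the 491 genes with a member (35.8%, interval 31.6 to 40.3%). This held for 1212 of the 5165 genes of divergent pairs without one (23.5%, 22.3 to 24.6%). Close same-strand genes are typical of operons, which in worms are transcribed from the promoter of the first gene. Operon annotation was not used here, and the part of gene class in this difference was not tested.

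The sequence at member summits was richer in G and C than its surroundings. The 151 bp window centred on the summit had a median of 45% G and C at members, 36.8% in windows 400 bp to each side, and 33.1% at the middles of 1947 divergent pairs with no pooled candidate. One-direction summits had 44.4% and other summits 45%, so this composition was shared by all classes of strong interval. Most of the words below are rich in G and C, whereas TGATAA and TTTCAG are rich in A and T. The part of composition in the share of any word was not tested. Each word was searched on both strands of the window.

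Short words with GACGC or of the form GCGNCAGC were found at a minority of members. GACGC was in 96 of 242 windows (39.7%, interval 33.5 to 46.1%), in 12.6% of 484 flanks and in 9.14% of the middles without a candidate. One-direction summits had it in 26.2% of windows (23.7 to 28.9%). The longer GAGACGCA, which contains GACGC, was in 21 member windows (8.68%), 6.52% of one-direction windows and 0.826% of flanks. GCGNCAGC, where N is any base, was in 31 (12.8%, 8.87 to 17.7%), in 5.97% of one-direction windows (4.65 to 7.54%), 0.620% of flanks and 1.36% of the middles of all divergent pairs. The form GCGTCAGC (15 members) holds GACGC on its other strand, whereas GCGCCAGC (17 members) does not. The windows printed for drr-2 and set-16 and for jmjd-4 and mev-1 show such words in 2 copies, and 8 members had GCGNCAGC more than once.

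Among thresholded intervals the intervals of these words overlapped between promoter types. GACGC was in 45.8% of 107 divergent windows (interval 36.1 to 55.7%) and 37.5% of 261 one-direction windows (31.7 to 43.7%). GCGNCAGC was in 16.8% of divergent windows (10.3 to 25.3%) and 16.5% of one-direction windows (12.2 to 21.5%), and GAGACGCA in 11.2% of divergent and 10.3% of one-direction windows. Among members outside the thresholded set GCGNCAGC was in 9.63% and GAGACGCA in 6.67% of windows. GCGNCAGC was rare at strong summits outside promoters, with 3.23% of 310 thresholded windows (1.56 to 5.85%), where GAGACGCA was in 10.3%. AGAGAGAG, which was in 11.0% of those 310, was in 1 of the 107 thresholded divergent windows (0.935%, 0.0237 to 5.10%) and in 5.75% of the one-direction ones (3.25 to 9.30%).

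Ranking all 8-base words by the excess of their share at members over flanks gave a further set, from which 4 words were chosen after their counts had been seen. AAGTGCGC was in 23 members (9.50%, interval 6.12 to 13.9%), 2.62% of one-direction windows and 0.207% of flanks. GCGCTCCA was in 21 members (8.68%, 5.45 to 13.0%), 1.36% of one-direction windows and 1.24% of flanks. GCGAGACC was in 20 members (8.26%, 5.12 to 12.5%), 1.63% of one-direction windows and 0.620% of flanks. CTGGCGCA, which overlaps GCGCCAGC, was in 19 members (7.85%, 4.79 to 12%), 2.17% of one-direction windows and 0.207% of flanks, and 12 of these members also held GCGCCAGC. AAACGCGC, also near the head of that ranking, was in 7.85% of member windows, 4.89% of one-direction windows and 0 of 484 flanks. Among thresholded intervals, GCGCTCCA was in 12.1% of divergent windows (6.63 to 19.9%) and 1.92% of one-direction windows (0.625 to 4.41%), and GCGAGACC in 13.1% of divergent (7.34 to 21%) and 3.45% of one-direction windows (1.59 to 6.44%). For the other words the intervals overlapped. AAGTGCGC was in 13.1% of divergent (7.34 to 21%) and 7.28% of one-direction windows (4.44 to 11.1%), and CTGGCGCA in 12.1% of divergent (6.63 to 19.9%) and 7.66% of one-direction windows (4.74 to 11.6%). AAACGCGC was at a lower share in divergent windows, with 8.41% (3.92 to 15.4%) against 10.3% of one-direction windows (6.93 to 14.7%). These words were picked for their counts at members, so the intervals do not allow for that choice.

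The window at rpl-20 and Y17G9B.5, the strongest member, shows AAGTGCGC and GCGCTCCA fused on the minus strand, with 4 bases in common. The same fusion was found in 8 of the 242 member windows and 1 of the 1105 one-direction windows. At the 21 members with a cytosolic ribosomal protein gene, GCGCTCCA and GCGAGACC were in 4 windows each (19.0%, interval 5.45 to 41.9%). At the other 221 members GCGCTCCA was in 7.69% (4.54 to 12%) and GCGAGACC in 7.24% (4.19 to 11.5%). GCGNCAGC was in 0 of these 21 (up to 16.1%) and in 31 of the other 221 (14%, 9.73 to 19.3%). For each of these words the intervals with and without a ribosomal protein gene overlap, so no difference is resolved at these counts. Within the 75 bp searched to each side, the median distance of the words from the summit was 17 bp for GCGNCAGC, 22 bp for AAGTGCGC, 24 bp for GCGCTCCA, 20 bp for GCGAGACC and 25 bp for GAGACGCA. In all, 111 of the 242 windows held neither GACGC, GCGNCAGC nor any of the 4 added words. Among those printed, only the window of hsp-60 and Y22D7AL.10 is such a case. The member at K01G5.10 and tasp-1 (939), next in signal after the strongest, held none of these words either.

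Common promoter words differed among themselves. TGATAA, the binding word of GATA factors, was in 6.20% of member windows, 9.95% of one-direction windows and 15.9% of the middles without a candidate. TTTCAG, the usual worm splice acceptor, was in 15.3% of member windows and 39% of flanks. GCGGGAAA, an E2F-type word, was in 7 member windows (2.89%, interval 1.17 to 5.87%), 1.09% of one-direction windows (0.562 to 1.89%), 0.207% of flanks and 0.462% of the middles without a candidate. TGATAA and TTTCAG were thus at lower shares in member windows than in the middles or flanks given. GCGGGAAA was at a higher share in member windows than in either, as was GCGNCAGC.

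A higher share of members than of the 5000 as a whole was found in both replicates. The 5000 highest candidates of both replicates overlapped 149 of the 242 members (61.6%, interval 55.1 to 67.7%), beside 42.7% of the 5000 and 49.4% of one-direction summits. The pooled signal that chose the members is made of these reads, and members hold more of the thresholded intervals, so the difference follows from the selection to an extent that was not tested. Within the thresholded set the shares were 96.3% of 107 members and 97.8% of all 945, and outside it 34.1% of 135 members and 29.8% of the other 4055. No candidate among the 5000 highest of either replicate overlapped 8 members (3.31%), beside 8.42% of the 5000. Among all candidates, 3 members had no match in replicate 1 and 5 had none in replicate 2. Across the 234 members matched in both lists, signal in the replicates was correlated with a Spearman's rho of 0.622, and across 1063 matched one-direction summits with 0.323. Within each of these values the replicates share a control, and the members' spread of pooled signal between quartiles was wider than that of one-direction summits. The part of either in the values was not tested. When each replicate was used alone, 233 pairs had a summit in replicate 1 and 264 in replicate 2, and 161 were common to both, which is 69.1% and 61% of them.

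**Figure D5:**
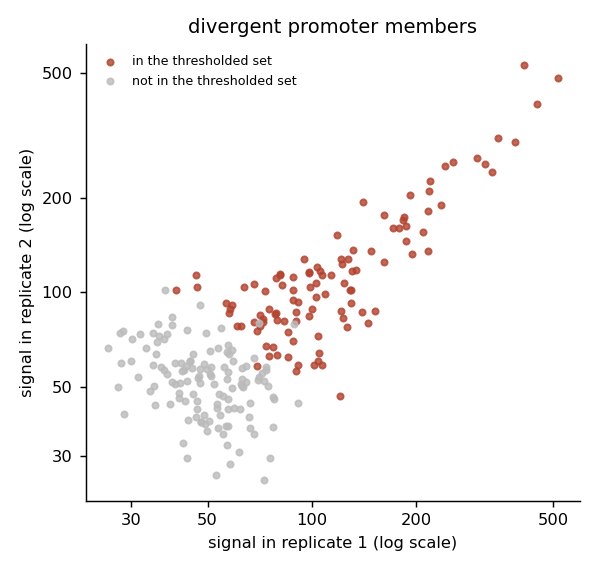
Signal of each member in replicate 1 (horizontal) and replicate 2 (vertical), both on log scales in the authors' signal units, with thresholded members in red and the others in grey. Points are the 234 members matched in both lists, and the highest reach 515 in replicate 1 and 531 in replicate 2.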

How the data were processed

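ChIP-seq intervals of 2 biological replicates on assembly ce11 were used as deposited. The authors deposited 30000 candidate intervals per replicate and for the pool, and 945 thresholded peaks, all against 1 control file per the deposited notes. The signal (column 7) and the −log10 q-value (column 9, not analysed here) are the values the authors deposited. Aligner, peak caller and signal scaling were not given in the sources used here. Each interval lies within the 6 nuclear chromosomes of WBcel235, and genes are from Ensembl release 115 (19973 protein-coding). Summits are start plus offset, and coordinates are 1-based. Sequences are from the RefSeq genome of WBcel235. A member's nearest 5′ ends were taken for its pair, and its replicate value from that candidate, among those overlapping by at least 1 bp, whose summit was closest. Words were counted 75 bp to each side of the summit. Exact 95% binomial intervals came from SciPy 1.17.1, with pandas 2.3.3. No test was made, since there is 1 group and the members were selected on the pooled signal. The members, words and gene lists were chosen with earlier results of these data known. Genes named are those of the 25 strongest members, up to 4 highest of each list, the intervals at the edge of the rule and 3 promoters with several summits. Further listed genes are named where genes face each other. Some genes outside the lists are named as well, for their family or for a word in their window. Class assignment and word counting were tested on simulated data.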

Additional observations from a re-analysis of the deposited data

How the results depend on the processing

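Of 69 values recomputed under other settings, 47 stayed within the 95% interval of the reported share, or within 1.5 times the reported count, and 22 did not. The members numbered 154 with a window of 500 and 100 bp, 380 among 10000 pooled intervals and 107 in the thresholded set, which held 73 listed genes. The share of pairs with a summit was 6.18, 12.4 and 3.81% for 2500 intervals, 10000 intervals and the thresholded set. That of genes without a divergent partner was 4.16% with the shorter window, 7.62% with all transcript ends, 3.69 and 12.1% for 2500 and 10000 intervals, 1.53% for the thresholded set and 6.98% without the small RNA condition. Summits between the 5′ ends made up 90.9% of members among 2500 intervals, 78.9% among 10000 and 95.3% in the thresholded set. The central part held 68.1% with the shorter window and 68.0% in the thresholded set. GACGC was in 31.3% of windows for 10000 intervals and 32.6% with windows of 50 bp to each side. The 2500 and 10000 highest candidates per replicate overlapped 48.8 and 81.4% of members in both. Leaving out a replicate gave 223 to 255 members and moved no result past these limits. No paired analysis was possible because there is only 1 group. Unknown depth limits what absence of a summit shows.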
